A study of Mus musculus with 4 samples.

Results

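The mitochondrial ribosomal protein genes are the nuclear genes with an Mrpl or Mrps symbol followed by a digit. They were followed in mouse embryonic stem (ES) cells labelled E14, after lipofection with short hairpin RNAs (shRNAs). The platform annotation names 76 such genes on 110 probes. A gene was kept when a probe had a detection score (1 minus the detection p) above 0.99 on all 4 arrays of at least 1 group, and its brightest probe was used. This left 68 of the 76 genes, among 8248 genes measured in all. The 4 hairpin groups target GFP, Sox2, Esrrb, or both of the latter (called dual here), and every group was selected with puromycin for 2 days. The GFP hairpin, against a jellyfish protein that ES cells lack, was the control, so all groups share the transfection and the selection and none is untreated. Each group has 4 arrays, lettered A to D, and it is not stated whether they are separate transfections, so a p-value here reflects array-to-array spread alone, and that spread may be technical.

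Mitochondria keep their own ribosome, the mitoribosome, which translates the few messenger RNAs encoded by mitochondrial DNA into core subunits of the respiratory chain. Its ribosomal RNAs are made in the organelle, whereas all of its proteins are encoded in the nucleus, made in the cytosol and imported. The Mrpl genes encode proteins of the large subunit, which forms peptide bonds, and the Mrps genes those of the small subunit, which decodes the messenger RNA. A few symbols do not follow this split: Mrps18a and Mrps30 proteins sit in the large subunit and were counted there. ES cells are known to draw strongly on glycolysis, with mitochondria that mature as the cells differentiate. Both targets maintain the ES cell state: Sox2 is an SRY-box transcription factor, and Esrrb belongs to the nuclear receptors without a known natural ligand.

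The targeted transcripts were lower in their own groups, though Sox2 stayed at 73.1% of the GFP level with its own hairpin. Esrrb differed from GFP by −2.11 ± 0.067 (log2, SE) with the Esrrb hairpin, by −1.77 with the dual hairpin and by −1.21 with the Sox2 hairpin. Sox2 differed by −0.45 ± 0.084 with the Sox2 hairpin, by −0.93 with the dual hairpin and by −0.55 with the Esrrb hairpin. Adjusted p-values for these 6 differences lay between 1.62e-11 and 0.000434 (limma, Benjamini-Hochberg over 8248 genes). The median intensity of an array ran from 17.9 to 31.1, and 11286 to 13322 probes were detected per array. The A and B arrays had fewer detected probes than the C and D arrays in every group. Within a group the arrays correlated at 0.984 to 0.996, and no 2 arrays held identical values.

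Of the 68 mitoribosomal genes kept, 44 encode large subunit proteins and 24 small subunit proteins, and 43 have a bacterial homolog whereas 25 are found in mitochondrial ribosomes only. On 15 arrays all 68 were detected, and on dual array C 67 were. The exception there was Mrpl39, detected on 3 of the 4 dual arrays. Mrpl39, a large subunit protein, was with Mrpl51 the dimmest of the genes kept, with deposited intensities of 63.9 ± 35.2 and 65.0 ± 16.8 (SD, n = 4) in the GFP group. The 8 genes not kept were Mrpl15, Mrpl19, Mrpl21, Mrpl32, Mrpl57, Mrps14, Mrps27 and Mrps36. Nearest to the threshold from outside were Mrpl57, whose lowest score in its best group was 0.978, and Mrpl15, at 0.974.

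The DNA around the start sites of 6 genes with large changes is shown first, so that the members that fell and a member that rose can be read side by side. RefSeq promoter windows (build GRCm38.p6, 250 bases before to 50 after the start site) were found for 61 of the 68 genes. Mrpl52 fell with the dual hairpin, Mrpl35 and Mrps15 with the Sox2 and dual hairpins, and Mrps11 and Mrpl20 with all 3. Mrpl14 rose with the Sox2 and dual hairpins. The windows lie at chr14:54426659-54426958 on the plus strand for Mrpl52, chr6:71823735-71824034 on the minus strand for Mrpl35, chr4:126046678-126046977 on the plus strand for Mrps15, chr7:78782881-78783180 on the plus strand for Mrps11, chr4:155802628-155802927 on the plus strand for Mrpl20 and chr17:45686099-45686398 on the plus strand for Mrpl14. Capitals mark letters of a searched motif, read 5′ to 3′ on the strand of the gene.
Mrpl52: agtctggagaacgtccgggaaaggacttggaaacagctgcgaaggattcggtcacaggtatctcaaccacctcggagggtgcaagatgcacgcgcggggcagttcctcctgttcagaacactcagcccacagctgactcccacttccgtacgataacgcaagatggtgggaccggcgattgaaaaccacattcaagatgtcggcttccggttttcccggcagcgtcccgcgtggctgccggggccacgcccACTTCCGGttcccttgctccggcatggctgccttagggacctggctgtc
Mrpl35: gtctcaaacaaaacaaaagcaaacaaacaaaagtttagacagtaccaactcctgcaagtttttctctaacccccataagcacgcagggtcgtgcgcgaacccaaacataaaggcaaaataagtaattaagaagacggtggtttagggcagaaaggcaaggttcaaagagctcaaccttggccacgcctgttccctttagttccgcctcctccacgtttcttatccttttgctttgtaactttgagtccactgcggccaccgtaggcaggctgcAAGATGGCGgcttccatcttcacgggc
Mrps15: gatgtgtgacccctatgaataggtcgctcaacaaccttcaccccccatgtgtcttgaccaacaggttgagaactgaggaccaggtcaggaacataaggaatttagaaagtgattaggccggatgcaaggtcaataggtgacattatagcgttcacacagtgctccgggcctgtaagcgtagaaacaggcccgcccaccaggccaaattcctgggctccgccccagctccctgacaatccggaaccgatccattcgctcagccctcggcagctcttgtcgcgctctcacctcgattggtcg
Mrps11: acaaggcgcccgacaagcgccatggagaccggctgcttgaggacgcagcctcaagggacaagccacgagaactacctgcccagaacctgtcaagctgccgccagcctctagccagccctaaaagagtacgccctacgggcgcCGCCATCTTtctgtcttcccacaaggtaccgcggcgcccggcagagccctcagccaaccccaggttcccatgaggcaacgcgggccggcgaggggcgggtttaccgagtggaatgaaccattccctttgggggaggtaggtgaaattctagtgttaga
Mrpl20: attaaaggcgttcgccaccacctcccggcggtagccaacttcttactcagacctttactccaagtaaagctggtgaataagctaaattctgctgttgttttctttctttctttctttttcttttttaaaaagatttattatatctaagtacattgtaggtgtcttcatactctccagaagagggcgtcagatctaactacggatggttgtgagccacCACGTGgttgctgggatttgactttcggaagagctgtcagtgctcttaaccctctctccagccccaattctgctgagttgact
Mrpl14: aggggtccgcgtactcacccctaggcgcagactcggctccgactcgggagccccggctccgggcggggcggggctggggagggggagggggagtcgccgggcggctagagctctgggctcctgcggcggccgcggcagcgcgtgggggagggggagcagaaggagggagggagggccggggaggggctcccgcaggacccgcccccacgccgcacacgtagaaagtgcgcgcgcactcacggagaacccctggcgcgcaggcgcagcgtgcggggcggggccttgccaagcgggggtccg

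The motifs searched, on both strands, were GCGCATGCG (NRF1, a regulator of nuclear genes for mitochondrial proteins), CCGGAAGT (ETS family, which includes GABPA, or NRF2), AAGATGGCG (YY1), TCAAGGTCA (Esrrb), CATTGTT (Sox2) and CACGTG (the E-box bound by Myc). Mrpl52 carries the ETS letters from 2 bases after its start site, Mrpl35 the YY1 letters from 24 bases after it, Mrps11 the YY1 letters 108 bases before it and Mrpl20 the E-box 33 bases before it. The Mrps15 and Mrpl14 windows hold none of the 6. Over the 67 windows of the 61 genes, the NRF1 letters occurred in 9.0%, the ETS letters in 16.4% and the YY1 letters in 10.4%. The shares in the 8651 windows of all measured genes were 3.6%, 8.0% and 3.0%. The Esrrb letters occurred in 0.0% of the mitoribosomal windows and in 0.3% of those of measured genes. The Sox2 letters occurred in 3.0% and 1.6%, and the E-box in 10.4% and 10.0%. Overlapping windows of Mrpl2 hold the same E-box, and by gene its share was 8.2% (5 of 61). The NRF1 letters overlap their own reverse complement, so 1 stretch can match on both strands, and each window was counted once. A match is a description of these letters and not a binding site. With the dual hairpin 5 of the 7 genes with the YY1 letters fell, against 26 of the 54 without. The counts were 4 of 11 against 27 of 50 for the ETS letters, 2 of 6 against 29 of 55 for NRF1, 3 of 5 against 28 of 56 for the E-box and 1 of 2 against 30 of 59 for Sox2. These splits were not tested.

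Many of the mitoribosomal genes fell by a small step when Sox2 was targeted, alone or with Esrrb. With the Sox2 hairpin 30 of 68 fell and 2 rose, with the dual hairpin 36 fell and 2 rose, and with the Esrrb hairpin 4 fell and 0 rose (limma, adjusted p below 0.05). Of all 8248 genes, 21.5% fell and 21.7% rose with the Sox2 hairpin, 22.3% fell and 22.1% rose with the dual hairpin, and 5.76% fell and 5.86% rose with the Esrrb hairpin. The share of mitoribosomal genes that fell was thus 44.1% and 52.9% with the Sox2 and dual hairpins, above the background, and 5.88% with the Esrrb hairpin, at the background. The 3 comparisons share the GFP arrays, so they are not independent of one another. In the Esrrb comparison 13 genes lay below an unadjusted p of 0.05, or 19.1% beside 24.9% of all genes, and all 13 were lower, and with an intensity trend in limma 6 were called.

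The median difference of the 68 genes was −0.099 (log2) with the Esrrb hairpin, −0.161 with Sox2 and −0.268 with dual, which are 93.4%, 89.5% and 83.0% of the GFP level. The medians of all genes were 0.003, −0.002 and −0.010. Differences were below 0 for 52, 56 and 57 of the 68 genes. Few of the falls were large. The 36 with the dual hairpin ran from −0.17 to −0.74. In each of the Sox2 and dual comparisons 2 of the 68 were called with a fall past 1.5-fold. Of all 8248 genes 507 and 527 were, which is a larger share. The genes not called ranged from −0.44 to 0.18 with Sox2 and from −0.47 to 0.18 with dual. In the A and B arrays alone the median for the dual hairpin was −0.248 in the large subunit and −0.259 in the small, and in the C and D arrays −0.261 and −0.298.

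**Figure D1:**
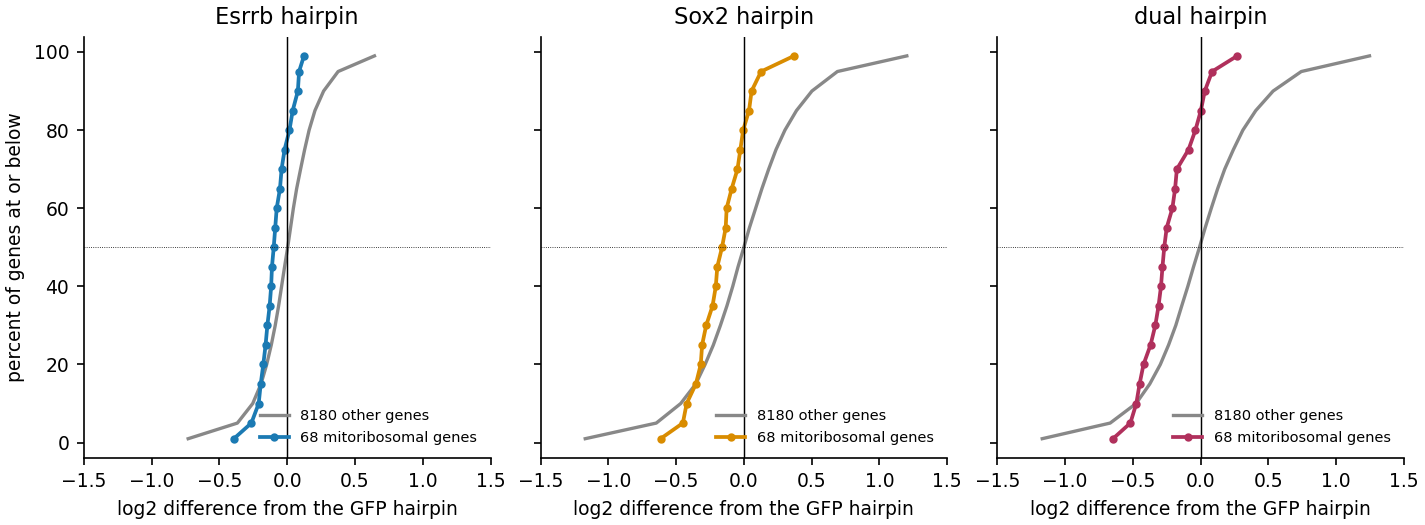
Cumulative share of genes (y axis, percent) at or below each log2 difference from the GFP hairpin (x axis), for the 68 mitoribosomal genes (points) and the 8180 other genes (grey line), in 1 panel per knockdown. The mitoribosomal line lies left of the grey line at the median, by the most with the dual hairpin, and its tails are shorter on both sides.

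The shift was present on each array and not on a few. Relative to the mean of the GFP arrays, the median of the 68 genes lay between −0.026 and 0.032 on the GFP arrays, between −0.107 and −0.069 on the Esrrb arrays, between −0.223 and −0.136 on the Sox2 arrays and between −0.289 and −0.217 on the dual arrays. The GFP, Esrrb and Sox2 ranges do not overlap, while Sox2 array C lay just below dual array B. The median of all genes stayed between −0.011 and 0.012.

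**Figure D2:**
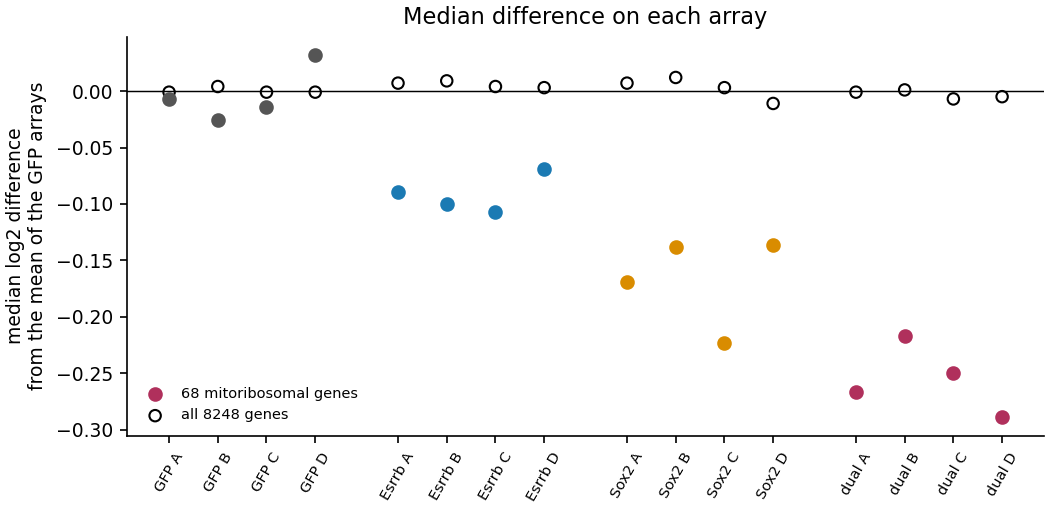
Median log2 difference from the mean of the GFP arrays (y axis) on each of the 16 arrays (x axis), for the 68 mitoribosomal genes (filled) and all 8248 genes (open). The dual arrays sit between −0.289 and −0.217 and the GFP arrays between −0.026 and 0.032.

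Genes whose 4 arrays lay wholly below the 4 GFP arrays were also counted. There were 13 of 68 with Esrrb, 27 with Sox2 and 34 with dual, beside 9.46%, 20.4% and 18.5% of all genes. Wholly above the GFP arrays were 0, 2 and 2 of the 68, beside 9.34%, 21% and 19.2% of all genes. The choice of scaling bears on the Sox2 count. When each array was centred on the median of all probes, most of them dim, 5 of the 68 genes fell with Sox2 (7.35%, beside 10.4% of all genes) and 15 with dual (22.1%, beside 11.1%), and the medians were −0.229 and −0.307. Centred on the median of the kept probes, a setting added after the first was seen, 33 fell with Sox2 and 42 with dual. These were 48.5% and 61.8%, beside 23.2% and 25.5% of all genes, and 0 rose with dual.

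Both subunits took part. In the dual comparison 20 of 44 large subunit genes and 16 of 24 small subunit genes fell, with medians of −0.262 and −0.289. With Sox2 17 of 44 and 13 of 24 fell. Among genes with a bacterial homolog 25 of 43 fell with dual, and among those found in mitochondrial ribosomes only 11 of 25, with medians of −0.274 and −0.266. These splits were not tested against each other.

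**Figure D3:**
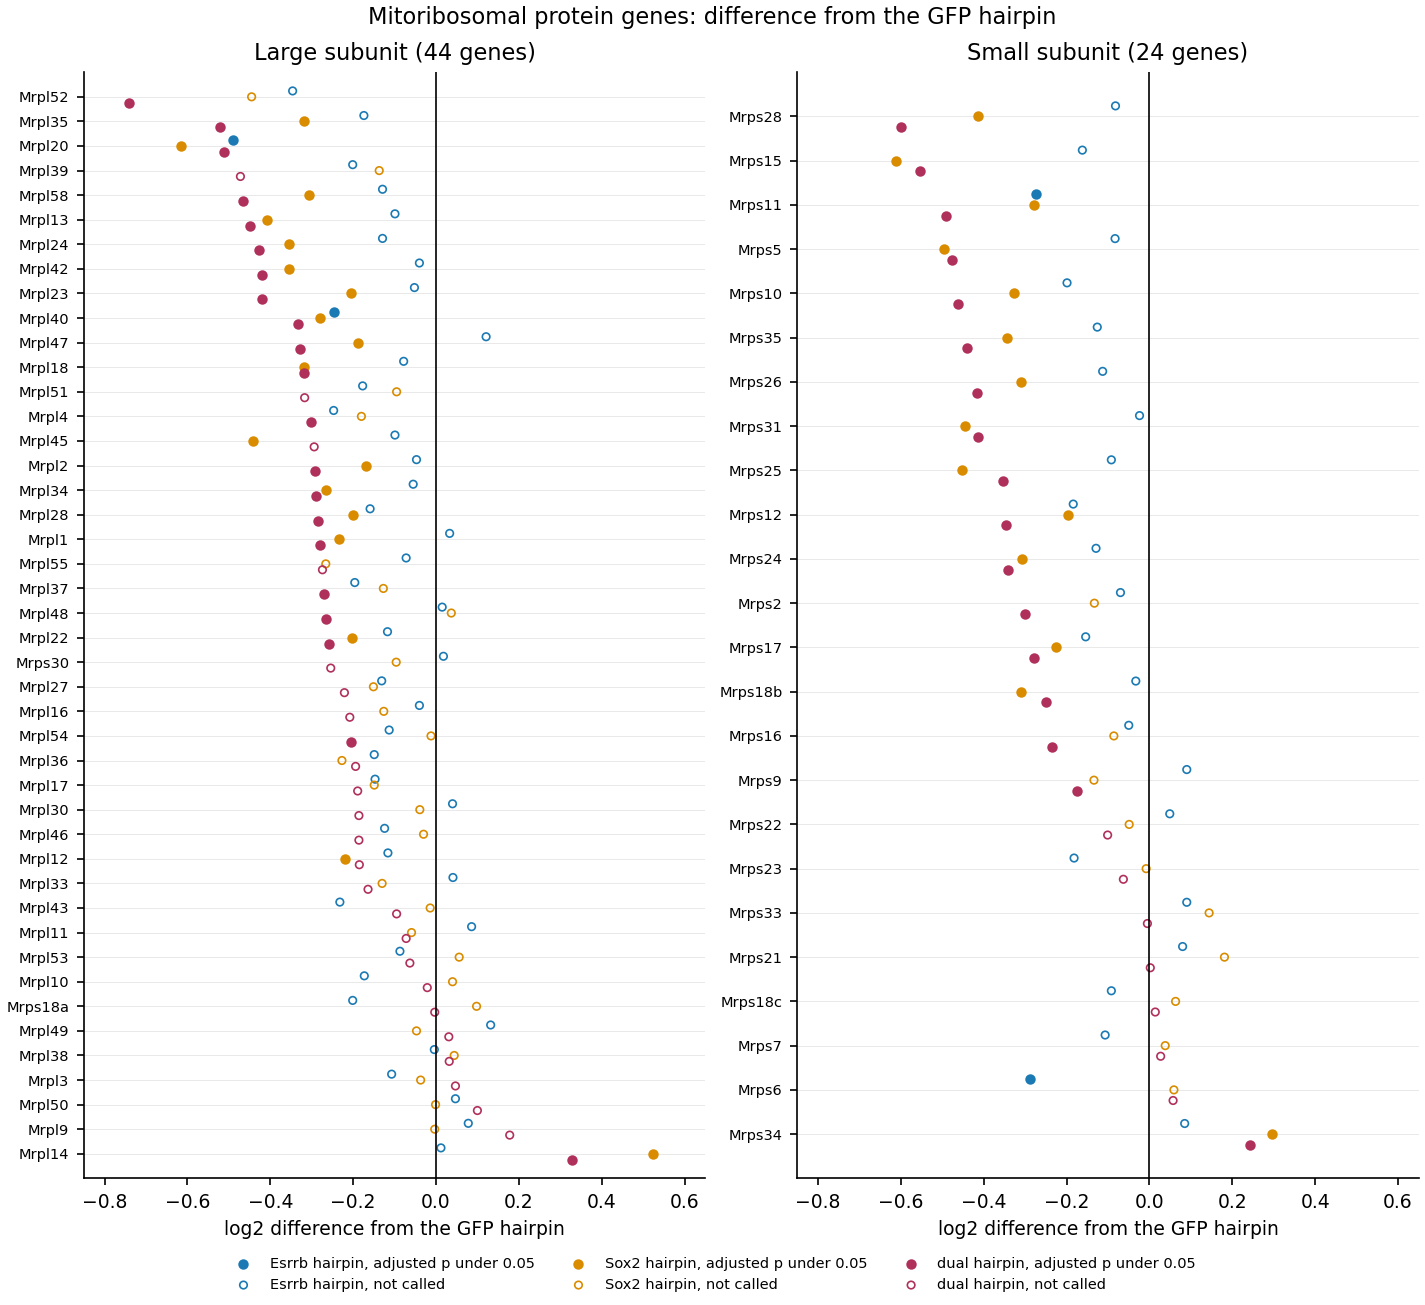
Log2 difference from the GFP hairpin (x axis) of each of the 68 genes (y axis, ordered by the dual difference), by subunit, for the Esrrb, Sox2 and dual hairpins. Filled points have an adjusted p below 0.05, and the called falls of Sox2 and dual run down to −0.62 and −0.74 while Mrpl14 and Mrps34 lie right of 0.

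Mrpl52, a large subunit protein with no bacterial counterpart, had the largest fall with the dual hairpin. Its log2 normalised intensities on arrays A to D were 9.69, 9.24, 9.02 and 9.61 with GFP and 9.02, 8.18, 8.89 and 8.52 with dual. The dual arrays did not lie above any GFP array, though dual A and GFP C met at 9.02 and both groups were wide. The fall was −0.74 ± 0.18 (SE, adjusted p = 0.00365), or 59.8% of the GFP level. With the Esrrb and Sox2 hairpins its differences were −0.35 (adjusted p = 0.259) and −0.45 (0.0604), neither called.

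Mrps28, a small subunit protein, was at 10.0, 9.94, 9.72 and 9.92 with GFP, at 9.56, 9.47, 9.51 and 9.38 with Sox2 and at 9.44, 9.44, 9.30 and 9.0 with dual. Every Sox2 and dual array lay below every GFP array, and the Esrrb arrays, at 10.05, 9.77, 9.74 and 9.69, overlapped them. It fell by 0.60 ± 0.10 with dual (adjusted p = 0.000212) and by 0.41 with Sox2 (adjusted p = 0.00419). Mrpl35, a large subunit protein with a bacterial homolog, showed steps down in the order of the groups. Its values were 8.05, 7.93, 7.93 and 8.01 with GFP, 7.78, 7.68, 7.89 and 7.87 with Esrrb, 7.51, 7.75, 7.70 and 7.68 with Sox2 and 7.29, 7.48, 7.46 and 7.60 with dual. The difference was −0.52 ± 0.076 (log2, SE) with dual (adjusted p = 4.78e-05) and −0.32 with Sox2 (0.00329), while the Esrrb difference of −0.17 did not pass (0.167).

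Mrps15 and Mrps11 are homologs of bacterial proteins that bind the small subunit ribosomal RNA, S15 in its central domain and S11 in the platform. Mrps15 was at 7.54, 7.59, 7.60 and 7.52 with GFP, at 7.10, 7.12, 6.74 and 6.84 with Sox2 and at 6.96, 6.82, 7.27 and 6.98 with dual. The Sox2 and dual arrays overlapped each other and lay below all GFP arrays. Mrps15 fell by 0.61 ± 0.10 with Sox2 (adjusted p = 0.000158) and by 0.56 with dual (0.000356), to 65.4% and 68.1% of the GFP level. Mrps11 was at 9.47, 9.48, 9.55 and 9.82 with GFP and at 9.14, 9.16, 8.93 and 9.14 with dual. Its falls were −0.27 with Esrrb (adjusted p = 0.0419), −0.28 with Sox2 (0.012) and −0.49 with dual (0.000164). The Esrrb call was lost on leaving out GFP array C or D or any 1 of the Esrrb arrays, and also without Sox2 array B, C or D or dual array D, which enter the shared variance (adjusted p 0.0501 to 0.13). Mrps11 has another kept probe, tested with limma over all 11591 kept probes. That probe gave −0.20 with Esrrb (adjusted p = 0.223), −0.24 with Sox2 (0.0549) and −0.28 with dual (0.0271).

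Mrpl20, the homolog of bacterial L20, an early assembly protein of the large subunit, fell with every hairpin. GFP arrays read 9.56, 9.58, 9.40 and 9.36, Esrrb arrays 9.18, 9.11, 8.60 and 9.04, Sox2 arrays 8.93, 9.05, 8.77 and 8.68 and dual arrays 9.06, 8.87, 8.99 and 8.93. All 12 knockdown arrays lay below the GFP arrays and overlapped one another, with Esrrb array C the lowest of its group. The falls were −0.49 ± 0.12 (adjusted p = 0.0103), −0.62 ± 0.12 (0.000465) and −0.51 ± 0.12 (0.00189) for Esrrb, Sox2 and dual. The Esrrb call was lost in the A and B arrays alone (adjusted p = 0.0746) and in C and D alone (0.0557). It was also lost with the mean of each array set as 1 replicate (0.146).

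**Figure D4:**
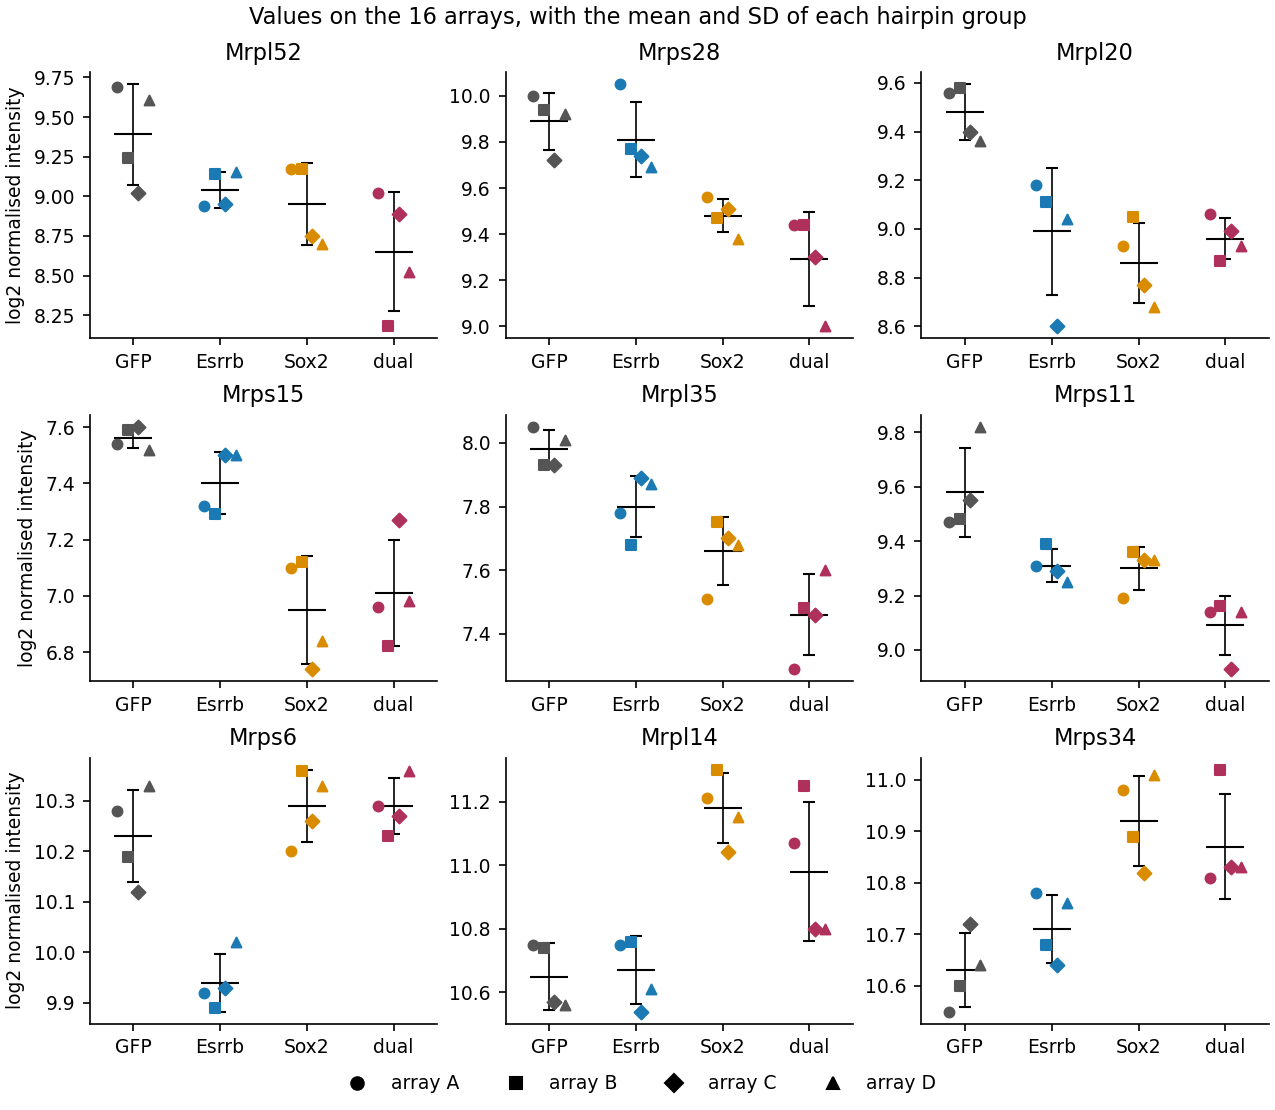
Log2 normalised intensity (y axis) of 9 genes on the 16 arrays, by hairpin group (x axis), with a marker for each array letter and the mean and SD (n = 4) of each group in black. Mrpl20 is lower in all 3 knockdown groups, Mrps6 is lower on the Esrrb arrays, and Mrpl14 and Mrps34 are higher in the Sox2 and dual groups. Each panel has its own scale.

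With the Esrrb hairpin the other calls were Mrps6 and Mrpl40. Mrps6, whose bacterial homolog pairs with S18, was at 9.92, 9.89, 9.93 and 10.02 with Esrrb and at 10.28, 10.19, 10.12 and 10.33 with GFP, with no overlap. It fell by 0.29 ± 0.062 (adjusted p = 0.00581), while the Sox2 and dual groups were both at 10.29 and overlapped GFP. The Mrps6 call was lost centred on the median of all probes (adjusted p = 0.561), with the mean of each array set as 1 replicate (0.101) and in either array set alone (0.122 for A and B, 0.206 for C and D). Mrpl40, a large subunit protein, fell to 84.4% of the GFP level with Esrrb (−0.24 ± 0.066, adjusted p = 0.0242), to 82.4% with Sox2 and to 79.3% with dual. Its GFP arrays lay between 11.14 and 11.20 and all knockdown arrays at or below 11.02. The Mrpl40 call with Esrrb was lost without GFP array B, C or D or Esrrb array C or D (adjusted p 0.0529 to 0.0724). The Esrrb count rests on few arrays in the same way: without GFP C, GFP D, Esrrb C or Esrrb D it was 2.

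The other large falls with the Sox2 hairpin were in Mrps5, Mrps25, Mrps31 and Mrpl45. Mrps5 is the homolog of bacterial S5, which lies near the messenger RNA entry and bears on decoding accuracy. On the arrays it was at 11.13, 11.08, 11.18 and 11.32 with GFP and at 10.38, 10.65, 10.88 and 10.82 with Sox2, a difference of −0.49 ± 0.13 (adjusted p = 0.00552). Mrps31, a mitochondria-specific small subunit protein, had a tight fall. It went from 11.80, 11.74, 11.72 and 11.76 to 11.31, 11.33, 11.23 and 11.36 (−0.45 ± 0.058, adjusted p = 1.65e-05) and was at 11.34 ± 0.089 (SD, n = 4) with dual.

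Mrps25, also mitochondria-specific, fell by 0.45 ± 0.11 with Sox2 (adjusted p = 0.00414), and its Sox2 arrays, at most 8.26, lay below the GFP arrays, at least 8.42. Mrpl45, which sits at the exit of the peptide tunnel and holds the mitoribosome to the inner membrane, fell by 0.44 ± 0.13 with Sox2 (adjusted p = 0.0119), and its −0.29 with dual was not called (0.0769). Centred on the median of all probes, the Sox2 calls of Mrps5 (adjusted p = 0.0627), Mrps25 (0.113) and Mrpl45 (0.133) were lost, and with the mean of each array set as 1 replicate those of Mrps25 (0.0604) and Mrpl45 (0.0517). Mrpl45 is among the dimmer genes, at an intensity of 69.9 ± 8.09 (SD, n = 4) with GFP.

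Mrpl14 and Mrps34 were the 2 genes that rose, with the Sox2 and with the dual hairpin. Mrpl14, the homolog of bacterial L14 and the docking site of the assembly factor Malsu1, was at 10.75, 10.74, 10.57 and 10.56 with GFP, at 11.21, 11.30, 11.04 and 11.15 with Sox2 and at 11.07, 11.25, 10.80 and 10.80 with dual. All Sox2 and dual arrays lay above all GFP arrays, and the C and D dual arrays lay only just above GFP A. The rises were 0.52 ± 0.10 (adjusted p = 0.000554) and 0.33 ± 0.10 (0.0141). Mrps34, a small subunit protein needed in mice for a stable small subunit, was at 10.55, 10.60, 10.72 and 10.64 with GFP, at 10.98, 10.89, 10.82 and 11.01 with Sox2 and at 10.81, 11.02, 10.83 and 10.83 with dual. Its rises were 0.29 ± 0.068 (adjusted p = 0.00248) and 0.24 (0.00882). Centred on the median of all probes, neither rise with dual was called (adjusted p 0.109 and 0.43), nor was that of Mrps34 with Sox2 (0.337). The dual rises also lost their calls centred on the median of the kept probes (0.0526 and 0.0598) and without normalization (0.17 and 0.404). The same held with set means as replicates (0.132 and 0.0572) and in the C and D arrays alone (0.0685 and 0.308). Mrps34 with Sox2 was not called without normalization (0.189) or in the C and D arrays alone (0.113).

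Adding the Sox2 hairpin to the Esrrb hairpin (dual against Esrrb) lowered 24 of the 68 genes and raised 2, beside 19.6% of all genes lowered and 20.6% raised. Centred on the median of all probes, 2 fell and 0 rose (2.94% lower, beside 6.66% of all genes), which puts the share below the background. In the A and B arrays alone 10.3% fell, beside 11.1% of all genes. The largest falls were in Mrps28, at −0.52 ± 0.10 (adjusted p = 0.000948), Mrpl47, at −0.45 ± 0.063 (4.74e-05), and Mrps5, at −0.39 (0.0228). Mrpl47, a homolog of bacterial L29 near the tunnel exit, was at 10.98, 10.92, 10.97 and 11.05 with Esrrb and at 10.51, 10.55, 10.55 and 10.52 with dual, well apart. Without dual array A or Esrrb array D the Mrps5 difference was not called (adjusted p 0.0779 and 0.0797). Mrps6 rose by 0.35 (adjusted p = 0.000411) and Mrpl14 by 0.32 (0.0197), the latter not called without dual array A, dual array B or Esrrb array C. The targets themselves differed here, Sox2 by −0.38 and Esrrb by 0.34 (limma, adjusted p = 0.00191 and 0.00088). Esrrb was thus less lowered in the dual group than in the Esrrb group.

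Adding the Esrrb hairpin to the Sox2 hairpin (dual against Sox2) lowered 0 and raised 0 of the 68 genes in limma, beside 3.21% of all genes lowered and 3.21% raised. At an unadjusted p of 0.05 there were 8, or 11.8% beside 21.4% of all genes, of which 7 were lower, and limma with an intensity trend called 1, Mrpl48. Mrpl48, a large subunit protein named after its value was seen, was also called when the probes of a gene were averaged. The same held when dual array A or dual array C was left out (adjusted p 0.0424 and 0.0228). With limma over all 11591 kept probes, an unused Mrpl48 probe was called (−0.34, adjusted p = 0.0116). The used probe (−0.30, 0.0772) and another unused probe (−0.22, 0.279) were not. Differences were below 0 for 55 of the 68, with a median of −0.064. The 95% interval of a single gene reached 0.17 to either side at the median standard error. Both targets were lower in the dual group than in the Sox2 group, Esrrb by 0.56 and Sox2 by 0.48 (limma, adjusted p = 0.000126 and 0.00287). Esrrb was already lowered in the Sox2 group, so the 0 calls do not measure the effect of Esrrb alone.

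The Esrrb and Sox2 knockdown groups were also compared directly. Against the Sox2 group, 17 of the 68 genes were higher (25%) and 5 lower (7.35%) with the Esrrb hairpin. Of all genes, 21% were higher and 22.1% lower. In either direction 32.4% of the 68 were called, beside 43.1% of all genes, so the share called was below the background. Centred on the median of all probes, 1 was higher and 1 lower (1.47% each, beside 9.13% and 9.21% of all genes). With the mean of each array set as 1 replicate the counts were 5 and 2 (7.35% and 2.94%, beside 13.4% and 14.4%). Mrps15 was higher by 0.45 (adjusted p = 0.00207), Mrps31 by 0.42 (3.12e-05) and Mrps5 by 0.41 (0.0169). Mrpl14 differed by −0.51 (adjusted p = 0.000712), Mrps6 by −0.35 (0.000347) and Mrps18a by −0.30 (0.0362). Mrps18a is a paralog of bacterial S18 that sits in the large subunit, and its Esrrb arrays, from 9.73 to 10.17, overlapped the Sox2 arrays, from 10.14 to 10.32. That call was lost without Esrrb array C or D or Sox2 array A, B or D. The count of 22 fell to 14 without Sox2 array A.

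The interaction asked whether the dual difference departs from the sum of the single differences. For 0 of the 68 genes it was lower and for 0 higher in limma, beside 1.27% and 1.61% of all genes, and 5 passed an unadjusted p of 0.05, or 7.35% beside 15.8% of all genes. The nearest was Mrpl20, at 0.59 ± 0.16 (adjusted p = 0.0646), where the dual fall was smaller than the sum of the single falls. With the array letter as a replicate block Mrpl20 was called (0.59 ± 0.14, adjusted p = 0.0283), and limma with an intensity trend also called it (0.0299). With the mean of each array set as 1 replicate it was not called. The Esrrb transcript itself departed from the sum, by 1.55 ± 0.094 (limma, adjusted p = 2.85e-07). The falls of this target thus did not add up in the dual group, and the 0 calls do not show additive action.

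Several genes had over 1 kept probe. There were 18 such genes with 41 probes, and in 0 cases were probes of a gene called in opposite directions. The 3 probes of Mrps31 fell with dual by −0.41, −0.42 and −0.44, and the 3 of Mrps25 by −0.24, −0.35 and −0.57. In other genes, chosen after their values were seen, the probes differed. For Mrpl49 the brightest probe, the 1 used, differed by 0.03 (adjusted p = 0.819), while its other 3 probes were at −0.33 (0.0103), −0.32 (0.0283) and −0.22 (0.247). Mrpl3 probes were at 0.05 and −0.21 with dual and those of Mrpl43 at 0.09 and −0.10, none called. For Mrps7 with Sox2 the unused probe was called (0.24, adjusted p = 0.0475) and the used probe, at 0.04, was not. The authors' deposited table of ratios, 1 per group, gave log2 ratios to GFP below 0 for 50, 56 and 56 of the 68 genes, with medians of −0.08, −0.181 and −0.253 for Esrrb, Sox2 and dual.

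Other nuclear genes that serve mitochondrial gene expression were read from lists written for the purpose. For all 8248 genes the shares were 22.3% lower and 22.1% higher with dual, and 21.5% lower and 21.7% higher with Sox2. Among mitoribosomal proteins that carry other symbols, Ptcd3, a small subunit protein with pentatricopeptide repeats, fell by 0.59 ± 0.12 with dual, and Dap3 and Chchd1 were at −0.08 and 0.02, not called. Of 10 mitochondrial translation factors 5 fell with dual (50%) and 3 with Sox2 (30%), with 0 raised. They were led by the elongation factor Gfm1 (−0.55, adjusted p = 0.00213), the exchange factor Tsfm (−0.49, 0.000109) and the release factor Mtrf1 (−0.38, 0.00281). Among 15 mitochondrial aminoacyl-tRNA synthetases and related enzymes 5 fell with dual (33.3%), the largest in Vars2 (−0.42), Ears2 (−0.39) and Qrsl1 (−0.31).

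Of 15 genes of mitoribosome assembly and ribosomal RNA modification 7 fell with dual and 7 with Sox2 (46.7% each). The GTPases Mtg1 (−0.63 with dual) and Noa1 (−0.50) and the small subunit factor Rbfa (−0.50) led. For mitochondrial DNA transcription and RNA handling, 9 of 15 fell with dual (60%). Among them were the elongation factor Tefm (−0.72), the single-stranded DNA binding protein Ssbp1 (−0.53) and the initiation factor Tfb2m (−0.44). Import and chaperone genes split: 13 of 24 (54.2%) fell with dual, led by Dnajc19 (−0.79) and Timm10 (−0.65), and 1 rose, Timm21 (0.80).

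The 2 larger neighbouring sets differed in how they moved. Of 70 nuclear subunits of oxidative phosphorylation, 31 fell (44.3%) and 3 rose with dual (median −0.172), led by Cox7a1 (−0.77), Ndufb7 (−0.67) and Cox7b (−0.58). With Sox2 9 fell (12.9%, below the share of all genes) and 6 rose (median −0.012). Of 56 cytosolic ribosomal protein genes, 4 fell (7.14%) and 2 rose with dual (median −0.007). Rpl3l (−0.97), Rpl7a (−0.44) and Rpl27a (0.22) were the largest changes among the genes called. The median of the mitoribosomal genes was −0.268 in the same comparison. No test was made between these lists. Of 6 measured regulators of nuclear genes for mitochondrial proteins, among them Nrf1 (0.17), Gabpa (−0.32) and Myc (−0.08), limma called 0 with dual, with 1 at an unadjusted p of 0.05 and 0 with an intensity trend.

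**Figure D5:**
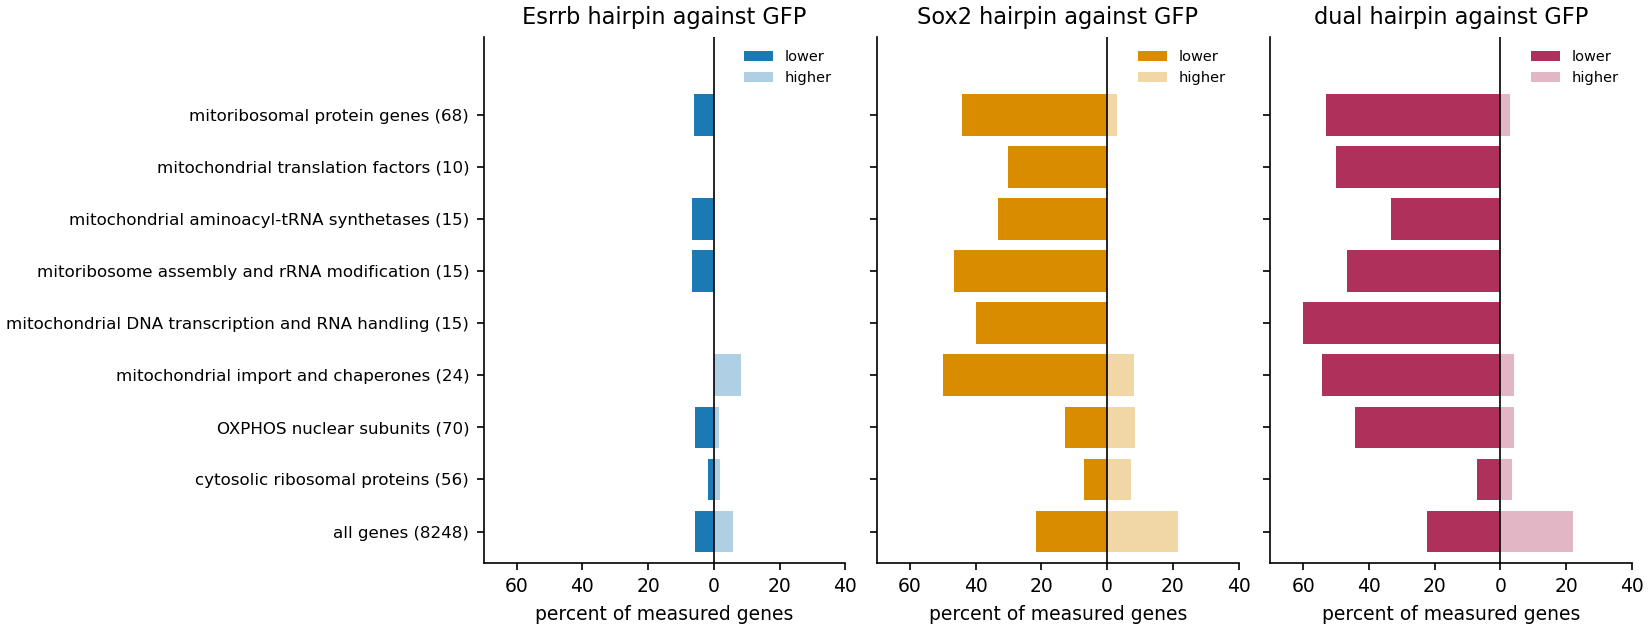
Percent of the measured genes of each list (y axis, number measured in parentheses) called lower (left, full colour) or higher (right, pale) against the GFP hairpin, with all 8248 genes at the bottom. With the dual hairpin 52.9% of the mitoribosomal genes fell, beside 22.3% of all genes, while 4 of 56 cytosolic ribosomal genes did.

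Cell type markers changed in all 3 knockdown groups. Of 8 ES cell markers 7 fell with Sox2 and 7 with dual, among them Pou5f1 (−0.90 and −0.93) and Nanog (−1.0 and −1.16), and 4 fell with Esrrb. Their summed deposited intensity was 63930 to 66780 on the GFP arrays, 58740 to 68030 with Esrrb, 55800 to 58890 with Sox2 and 52320 to 57530 with dual. This sum and those below were not normalised between arrays. Without normalization the median of all genes differed from GFP by −0.103 (log2, Esrrb), −0.139 (Sox2) and −0.142 (dual). Of 9 trophectoderm markers on the platform 7 passed the filter and were tested. Of these 5 rose with Sox2 and 5 with dual (71.4% each, beside 21.7% and 22.1% of all genes), Krt18 by 2.66 and 2.77. With Esrrb 3 rose and 1 fell. The sum over all 9 was 8343 to 9382 with GFP, 7761 to 8496 with Esrrb, 18650 to 22870 with Sox2 and 19090 to 25650 with dual. In the latter 2 groups 7 of the 9 were detected, and Eomes was detected on 0 arrays with Sox2. Of 7 extraembryonic endoderm markers 5 were tested, and 4 of these rose with dual. The sum over all 7 was 8797 to 10390 with dual against 4371 to 4873 with GFP, and Foxa2 was detected on 0 arrays. Of 8 fibroblast markers 5 were tested, and 1 of these rose and 1 fell with dual. The sums over all 8 were 18740 to 22420 with GFP and 22450 to 24890 with dual, and Col1a2, Col3a1 and S100a4 were detected on 0 dual arrays. The part of these changes in the fall of the mitoribosomal genes was not tested, and in bulk RNA fewer cells of a type and less RNA per cell cannot be told apart.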

How the data were processed

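The authors deposited intensities on a linear scale, not normalised between arrays per the file headers, for 16 1-colour Illumina bead arrays. Values below 0 make up 20.9% to 25.2% of an array, so a background had been subtracted. The authors also deposited a column that is a detection p-value per the file headers, which rises with the intensity and was read as 1 minus p. A second deposited table holds 1 ratio per probe and group, with scaling, averaging and base not given in the sources used here, and it was used only for the log2 ratios credited to it. The sources used here do not name the scanner software or a genome build.

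Intensities were background-corrected with limma 3.58.1 in R 4.3.3 (normexp fitted through the detection p, offset 16), quantile-normalised and set to log2. Of 25697 probes, 23978 have 1 gene symbol in the platform annotation, 0 several and 1719 none, and 23962 symbols were updated or kept through gene identifiers. The score filter left 11591 probes and, at the brightest probe per gene, 8248 genes. One linear model with a mean per group was fitted with lmFit and eBayes to all 8248 genes and all 16 arrays, and p-values were adjusted by Benjamini-Hochberg over 8248 genes per contrast, with a threshold of 0.05. Levels of different probes were not compared. The steps were tested on simulated data.

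Array letters A to D occur in every group. Deviations from the group means correlated at 0.144 to 0.446 between arrays of the same letter, at 0.223 to 0.451 between A and B or C and D of different letters, and at −0.451 to −0.14 across these pairs of letters. By the rule that every same-letter pair correlates above 0.1 the letters were taken as pairs, and the blocked value stands beside the interaction, where it changes the count of called genes from 0. No named difference lost its call under the block, and the other blocked counts close the text. The letters pair the arrays no more closely than the 2 sets A with B and C with D do, and 7 of 16 arrays correlated best with their own letter.

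The genes named are the called ones with the largest changes (6 each way against GFP, 3 each way elsewhere), those nearest the detection threshold and up to 3 called genes per companion list. The members, the lists and the tests were chosen with earlier results of these data known. Alternatives in scaling, offset, probe filter, probe choice, blocks, array sets, intensity trend and left-out arrays were run.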

Additional observations from a re-analysis of the deposited data

Results flagged for a closer look

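Dixon's test at 95% was applied to the named genes in each group, and in 3 of 72 cases 1 array lay far from the others of its group, where chance gives about 1 in 20. For Mrps11 with the dual hairpin, array C read 8.93 (log2) while the other arrays read 9.14 to 9.16. Mrps5 with the dual hairpin read 10.35 on array A and 10.81 to 10.83 on the others. Mrps34 with the dual hairpin read 11.02 on array B and 10.81 to 10.83 on the others.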

How the results depend on the processing

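The 31 differences of named genes kept their sign under all 919 alternatives run for them. Of these, 832 counted as the same and 87 lost the call. Among the losses were 27 on leaving out 1 array, 17 under median scaling over all probes and 13 with the mean of each array set as 1 replicate. A further 10 were in the C and D arrays alone and 8 in the A and B arrays alone. A fitted alternative counted as the same when it kept the call. The authors' deposited ratios, an alternative for differences from GFP, have no p-value. They counted as the same when they lay within the larger SD of the compared groups. The counts of called mitoribosomal genes moved more. Median scaling over all probes gave 1 with Esrrb, 6 with Sox2, 15 with dual, 2 in dual against Esrrb and 2 in Esrrb against Sox2. The 1 with Esrrb was lower (1.47%, beside 1.6% of all genes). No normalization gave 14 lower with Esrrb (20.6%, beside 12.3% of all genes) and 2 higher for the interaction (2.94%, beside 3.79%). It moved the median of all genes to −0.103 (Esrrb), −0.139 (Sox2) and −0.142 (dual), beside −0.219, −0.332 and −0.415 for the mitoribosomal genes. With set means as replicates the counts were 0 with Esrrb, 17 with Sox2, 13 in dual against Esrrb, 7 in Esrrb against Sox2 and 0 for the interaction. The A and B arrays alone gave 0 with Esrrb, 13 with Sox2, 19 with dual, 9 in dual against Esrrb and 8 in Esrrb against Sox2, and the C and D arrays alone 0 with Esrrb, 14 in dual against Esrrb and 8 in Esrrb against Sox2. These settings have fewer arrays. In the A and B arrays Esrrb against Sox2 had 8.82% of the 68 higher and 2.94% lower, beside 12.9% and 14.1% of all genes. In the C and D arrays it had 7.35% and 4.41%, beside 14.8% and 16.5%. In the A and B arrays 16.2% of the 68 fell with Sox2, beside 12.4% of all genes, and 25% with dual, beside 14.6%. In dual against Esrrb 10.3% fell there, beside 11.1%, so not above the background. In the C and D arrays the shares for Sox2, dual and dual against Esrrb were 29.4%, 42.6% and 19.1%, beside 15.7%, 16.5% and 12.5%. With set means they were 22.1%, 38.2% and 17.6%, beside 13.8%, 15.2% and 11.8%. Without the filter on dim probes 2 were called with Esrrb, both lower (2.63% of 76 genes, beside 2.07% of all genes). The array set as a block gave 7 lower with Esrrb (10.3%, beside 7.8% of all genes) and 1 higher for the interaction (1.47%, beside 2.84%). The array letter as a replicate block gave 1 for the interaction, Mrpl20. Its counts were 5, 32 and 43 with Esrrb, Sox2 and dual. They were 29 in dual against Esrrb, 0 in dual against Sox2 and 25 in Esrrb against Sox2. The shares that fell were 7.35%, 44.1%, 60.3% and 38.2% with Esrrb, Sox2, dual and in dual against Esrrb. Those of all genes were 7.34%, 24.1%, 25% and 22.4%. In Esrrb against Sox2 27.9% were higher and 8.82% lower, beside 23.6% and 24.6%. Calls lost under the letter block were 2 with Sox2, 1 with dual and 1 in dual against Esrrb, and it changed no other count by over 1.5 times. An offset of 50 gave 1 for the interaction. The intensity trend gave 1 there and 1 in dual against Sox2, where averaging probes also gave 1. The cause of these moves was not tested. Leaving out 1 array at a time gave 2 to 6 with Esrrb (2 without GFP C, GFP D, Esrrb C or Esrrb D), 26 to 33 with Sox2, 34 to 38 with dual, 20 to 26 in dual against Esrrb, 0 to 1 in dual against Sox2 (1 without dual A or dual C), 14 to 25 in Esrrb against Sox2 (14 without Sox2 A) and 0 for the interaction. Mrpl39, Mrpl51 and Mrpl45 lie near background, where the spread is wide.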
